A study of Mus musculus with 7 samples.

Results

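The genes of 9 acetylcholine receptors and receptor subunits were followed through RNA sequencing of hippocampal synaptoneurosomes from mice given AM6545 or vehicle. They are the 5 muscarinic receptor genes Chrm1, Chrm2, Chrm3, Chrm4 and Chrm5, and 4 nicotinic subunit genes, Chrna4, Chrna5, Chrna7 and Chrnb2. The members were taken from the deposited gene table by symbol, after the version was removed from each Ensembl identifier and the identifier was matched to its symbol in GENCODE M21. These 9 genes are 9 of the 22248 genes in the table, and 9 of 9 passed the filter on low counts that left 14654 genes to test.

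Synaptoneurosomes are fractions of resealed presynaptic and postsynaptic elements, so their RNA is enriched for transcripts held near synapses, and RNA of other cells is carried along. AM6545 is a CB1 cannabinoid receptor antagonist with limited entry into the brain, and the study asked what repeated dosing does to hippocampal synapses of otherwise untreated animals. The AM6545 group had 4 libraries, lettered B, D, E and F in the sample titles, and the vehicle group had 3, lettered B, D and E. Both groups came from female wild-type C57Bl/6J mice; the agent was the sole labelled difference, and dose, duration, age and the number of animals behind each library were not given in the sources used here. Nothing in the labels says that the libraries came from separate animals, so p-values measure the spread between these libraries, which may be technical.

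Acetylcholine reaches the hippocampus mainly from neurons of the medial septum and diagonal band. Muscarinic receptors are G protein-coupled: M1, M3 and M5 signal through Gq to phospholipase C, and M2 and M4 signal through Gi/o to lower cyclic AMP and open potassium channels. Nicotinic receptors are pentameric ion channels; Chrna4 with Chrnb2 makes the main high-affinity heteromeric receptor of the brain, Chrna5 is an accessory subunit of that receptor, and Chrna7 forms calcium-permeable homomeric channels.

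Library totals ran from 19174649 to 25894733 estimated counts. RNA of neurons and of glia was present in each library: the summed level of 5 excitatory neuron markers lay between 3678 and 3967 CPM (counts scaled to the size of the library) with AM6545 and between 4002 and 4708 CPM with vehicle, and that of 5 oligodendrocyte markers between 16329.9 and 22227 CPM over both groups. In bulk RNA, fewer cells of a type and less RNA per cell cannot be told apart. Counts also leaned with base composition in a way that followed the groups: per 10 percentage points of GC content, a library's log2 level shifted by -0.12 to -0.028 with AM6545 and by 0.052 to 0.14 with vehicle. The members span a GC content of 41.6% (Chrm2) to 57.0% (Chrm4), and values corrected for GC content and length are given beside the main ones. Vehicle B and vehicle E stood apart in their weight. At an unadjusted edgeR p under 0.05, 2134 genes were called with all 7 libraries, 954 without vehicle B and 3810 without vehicle E. Leaving out any other library gave 1472 to 1960. At an edgeR adjusted p of 0.05, 1 gene passed with all 7, 0 without vehicle B and 944 without vehicle E, and 0 to 3 without any other library. Results are therefore given with and without vehicle B and vehicle E.

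Chrm1 was by far the most abundant of the 9. Levels were compared between genes per transcript length, as counts divided by transcript length and scaled to the same total in each library. On this scale Chrm1 had a mean level of 115 ± 8.34 (SD, n = 7 libraries), above 89.4% of the genes tested and 12.8 times the next member, with no library out of order. Chrna4 (8.99 ± 1.51), Chrna7 (8.54 ± 2.78) and Chrnb2 (7.49 ± 0.817) followed per length. Chrna4 lay above Chrna7 in 3 of 7 libraries and Chrna7 above Chrnb2 in 5 of 7, so these neighbours did not differ beyond their spread.

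Chrm3 (6.29 ± 0.668) and Chrna5 (6.12 ± 0.583) came next and differed by a ratio of 1.03 in mean per-length level, which is within their spread, although Chrm3 was the higher in 6 of 7 libraries. Chrnb2 exceeded Chrm3 in 7 of 7 libraries, by a ratio of 1.19. Chrm4 (3.38 ± 0.615), Chrm2 (1.59 ± 0.273) and Chrm5 (1.15 ± 0.360) closed the order, with Chrm4 below Chrna5 and above Chrm2 in 7 of 7 libraries and Chrm2 above Chrm5 in 6 of 7. Chrm5 stood above 11.7% of the genes tested. Gene models of Chrm4 and Chrm5 in GENCODE M21 are single exons that hold no UTR beyond the stop codon, so their per-length levels rest on coding length, 1440 and 1599 bases.

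**Figure D1:**
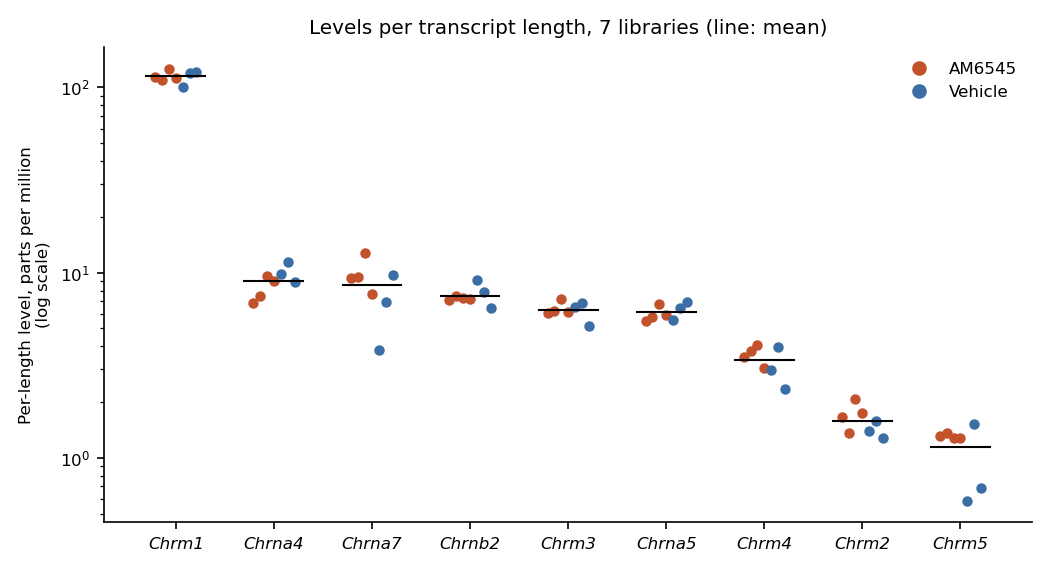
Per-length level (counts per transcript length, scaled to the same total in each library, log axis) of the 9 receptor genes in 4 AM6545 and 3 vehicle libraries; each point is a library and each line the mean of 7. Chrm1 lies at 101 to 126, and no other member exceeds 12.8.

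Chrm1 encodes the M1 receptor of pyramidal neurons, which raises their excitability through Gq. It lies at chr19:8663789-8683587 on the plus strand (GRCm38; ENSMUSG00000032773.10). Its level was 254, 246, 277 and 252 CPM in AM6545 B, D, E and F, and 273, 269.7 and 286 CPM in vehicle B, D and E. The groups overlapped through AM6545 E, which was higher than vehicle B and D; the other AM6545 libraries were below every vehicle library. On the log2 scale AM6545 differed from vehicle by -0.10 (95% interval -0.30 to 0.092; edgeR adjusted p = 0.600). With 43543 counts over the 7 libraries, Chrm1 was the most precisely measured member, and the interval covers folds from 0.815 to 1.07.

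Chrm3 encodes the M3 receptor, a second Gq-coupled form (chr13:9875486-10360847, minus strand; ENSMUSG00000046159.17). AM6545 libraries held 13.4, 13.6, 15.6 and 13.4 CPM of Chrm3 in the order B, D, E and F, and vehicle libraries 17.0, 15.2 and 12.1 CPM in the order B, D and E. Vehicle libraries spanned both sides of the AM6545 libraries, with vehicle E the lowest and vehicle B the highest of the 7. Chrm3 had a log2 fold change of -0.082 (95% interval -0.37 to 0.21; edgeR adjusted p = 0.790), and its sign turned without vehicle B, where it was 0.034.

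Chrm5 encodes the M5 receptor, the rarest of the family in forebrain (chr2:112479171-112480769, minus strand; ENSMUSG00000074939.4). It was counted 25, 29, 22 and 27 times in AM6545 B, D, E and F, and 14, 31 and 11 times in vehicle B, D and E. The AM6545 libraries were close together and lay between vehicle D above and vehicle B and E below. Exact Poisson 95% intervals, which cover counting error only, were 21.1 to 44.0 for the 31 counts of vehicle D and 5.49 to 19.7 for the 11 counts of vehicle E. For Chrm5 the log2 fold change was 0.39 (95% interval -0.31 to 1.09; edgeR adjusted p = 0.581), the widest interval among the members. It was 0.88 without vehicle D, 0.17 without vehicle B and 0.042 with limma-voom.

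The Gi/o-coupled pair was scarcer than Chrm1 and Chrm3 on the per-length scale. Chrm2 encodes the M2 receptor, which serves as an autoreceptor on cholinergic terminals and is also made by interneurons (chr6:36388084-36528414, plus strand; ENSMUSG00000045613.10). Chrm2 stood at 4.89, 3.93, 5.88 and 5.03 CPM in AM6545 B, D, E and F, and at 4.79, 4.6 and 3.95 CPM in vehicle B, D and E. The lowest value of all belonged to AM6545 D and the highest to AM6545 E, so the vehicle libraries lay within the range of the AM6545 group. Its log2 fold change was 0.14 (95% interval -0.23 to 0.51; edgeR adjusted p = 0.714) and 0.024 after the GC and length correction.

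Chrm4 encodes the M4 receptor, the main muscarinic receptor of striatal neurons and a presynaptic brake at hippocampal terminals (chr2:91927249-91928688, plus strand; ENSMUSG00000040495.5). Values were 2.60, 2.75, 2.92 and 2.23 CPM in AM6545 B, D, E and F against 2.58, 2.90 and 1.84 CPM in vehicle B, D and E. AM6545 E and vehicle D were nearly level at the top, and vehicle E was the lowest. Chrm4 had a log2 fold change of 0.090 (95% interval -0.37 to 0.54; edgeR adjusted p = 0.859), and it was -0.066 without vehicle E.

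Chrna4 encodes the alpha subunit of the high-affinity nicotine receptor (chr2:181018380-181043546, minus strand; ENSMUSG00000027577.15), and it had the lowest p of the 9. Chrna4 was at 14.5, 15.5, 20.6 and 16.5 CPM in AM6545 B, D, E and F, and at 25.4, 22.3 and 17.2 CPM in vehicle B, D and E. Each of the 4 AM6545 libraries was below the vehicle mean of 21.6 ± 4.12 CPM (SD, n = 3), but AM6545 E was above vehicle E, so the groups overlapped. This is a log2 fold change of -0.37 (95% interval -0.70 to -0.042), or a fold of 0.773. It did not pass the threshold over all genes (edgeR adjusted p = 0.304, unadjusted p = 0.0303).

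Chrnb2 encodes the beta subunit that pairs with it (chr3:89746195-89764632, minus strand; ENSMUSG00000027950.8). Chrnb2 ran at 23.1, 23.9, 22.6 and 23.0 CPM in AM6545 B, D, E and F, which differed little, and at 33.5, 25.6 and 22.4 CPM in vehicle B, D and E. All of the AM6545 libraries were below the vehicle mean of 27.2 ± 5.73 CPM (SD, n = 3), a mean that vehicle B raised; vehicle E was the lowest of the 7. Chrnb2 had a log2 fold change of -0.24 (95% interval -0.52 to 0.045; edgeR adjusted p = 0.414), and -0.15 after the GC and length correction. The per-length ratio of Chrna4 to Chrnb2 ran from 0.966 to 1.45 over the libraries, with means of 1.13 ± 0.173 (SD, n = 4) with AM6545 and 1.30 ± 0.191 (SD, n = 3) with vehicle. Of the 8380 exon bases of Chrnb2, 1365 are overlapped by exons of Adar, an RNA-editing enzyme gene on the opposite strand; use of strand in the counting was not given in the sources used here, so reads there cannot be told apart, and the level of Chrnb2 is uncertain to that extent. Adar itself had a log2 fold change of 0.15 (edgeR adjusted p = 0.576). Shorter overlaps of this kind touch Chrm1 (329 bases, Gm22820) and Chrm2 (142 bases, 9330158H04Rik).

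Chrna5 encodes the accessory subunit that raises calcium entry through receptors of Chrna4 and Chrnb2 (chr9:54980880-55007779, plus strand; ENSMUSG00000035594.11). Levels of Chrna5 were 5.93, 6.37, 7.57 and 6.29 CPM in AM6545 B, D, E and F, and 6.80, 6.97 and 7.74 CPM in vehicle B, D and E. As with Chrm1, AM6545 E alone reached into the vehicle range and the other 3 lay below it. In log2 terms the difference was -0.13 (95% interval -0.43 to 0.17; edgeR adjusted p = 0.667).

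Chrna7 encodes the subunit of the homomeric, bungarotoxin-binding receptor of hippocampal interneurons and terminals (chr7:63098692-63212569, minus strand; ENSMUSG00000030525.9), and it had the largest difference in the upward direction. Chrna7 reached 10.1, 10.04, 13.3 and 8.21 CPM in AM6545 B, D, E and F, and 4.83, 7.46 and 11.04 CPM in vehicle B, D and E. Each AM6545 library was above the vehicle mean of 7.78 ± 3.12 CPM (SD, n = 3), yet vehicle E was above AM6545 B, D and F, and the vehicle libraries alone spanned more than the distance between the group means. The log2 fold change was 0.43 (95% interval -0.11 to 0.98), a fold of 1.35, with edgeR adjusted p = 0.437 and unadjusted p = 0.109.

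**Figure D2:**
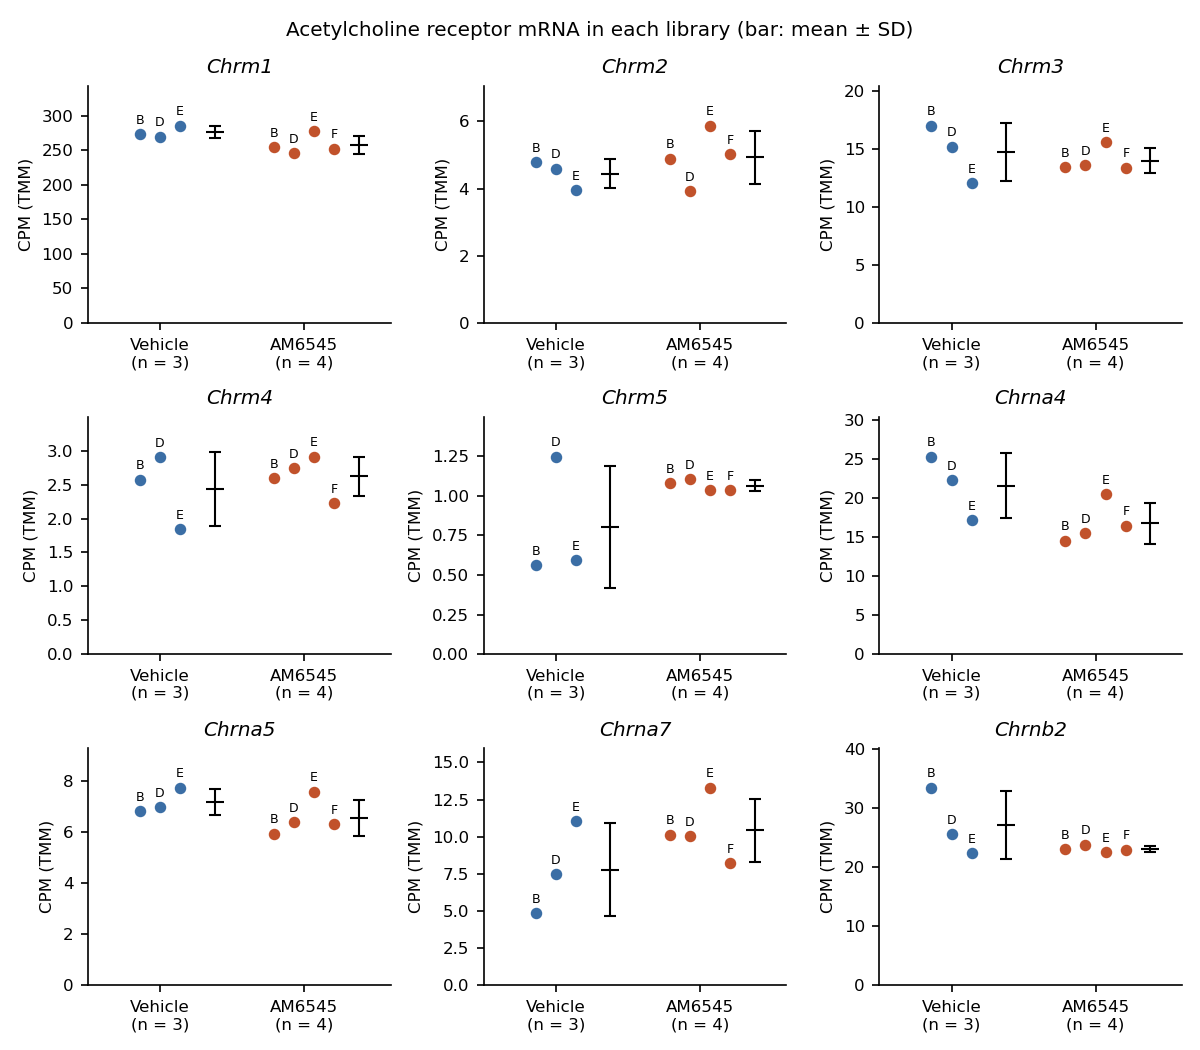
CPM after scaling for library composition for each receptor gene, with 3 vehicle libraries (blue) and 4 AM6545 libraries (orange) lettered as in the sample titles and bars showing mean ± SD. The groups overlap in each of the 9 panels; for Chrna4, Chrnb2 and Chrna7 the vehicle libraries spread from B through D to E.

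Taken over the 9 members, none passed the adjusted threshold of 0.05 and the adjusted p-values ran from 0.304 to 0.859 in edgeR's quasi-likelihood test. Among all genes tested, 1 gene passed, which is 0.00682%. At an unadjusted p under 0.05, 1 of 9 members was called (Chrna4, lower), against 14.6% of all genes in either direction, 8.7% in the lower and 5.86% in the higher direction; the share of members is near that background. No member was called at this level without AM6545 B, D or F, or without vehicle B. At the adjusted threshold DESeq2 called 0 of the 8 members to which it gave an adjusted p (1.4% of all genes), and limma-voom 0 of 9 (0.805%). No member had groups without overlap, against 13.8% of all genes. Positive log2 fold changes were seen for 4 members and negative ones for 5, with a median of -0.082 beside 0.0079 over all genes.

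Leaving out vehicle B or vehicle E moved Chrna4, Chrna7 and Chrnb2 in opposite directions. Without vehicle E, Chrna4 was at -0.51 (edgeR adjusted p = 0.0464) and Chrna7 at 0.76 (edgeR adjusted p = 0.0496), which puts 2 of 9 members past the threshold where 6.38% of all genes passed. Chrnb2 was at -0.36 in that fit (edgeR adjusted p = 0.0903). Without vehicle B the same genes shrank to -0.24 for Chrna4, 0.18 for Chrna7 and -0.055 for Chrnb2, with edgeR adjusted p-values of 0.846, 0.924 and 0.959. The GC and length correction left Chrna4 at -0.35 and Chrna7 at 0.45, close to the uncorrected values. It gave -0.094 for Chrm1, -0.17 for Chrm3, 0.26 for Chrm4, 0.43 for Chrm5 and -0.22 for Chrna5, with edgeR adjusted p-values from 0.730 to 0.979 over the 9 members.

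**Figure D3:**
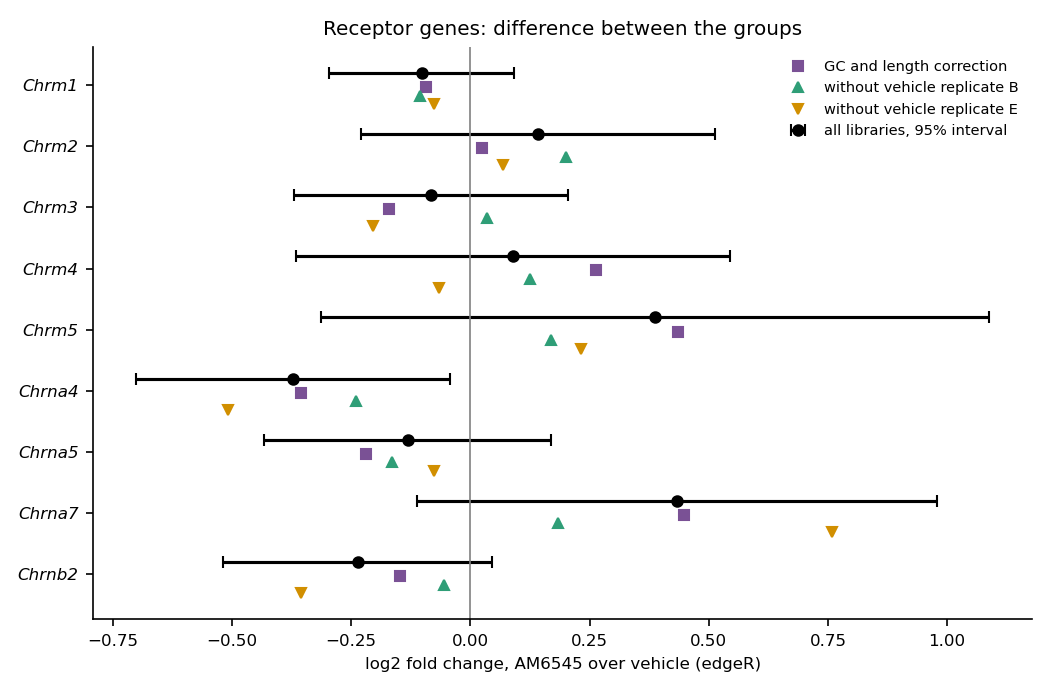
Log2 fold change of AM6545 over vehicle for each receptor gene, with the 95% interval from 7 libraries (black) and the estimates after the GC and length correction and without vehicle B or vehicle E. Only the Chrna4 interval, -0.70 to -0.042, leaves out 0 among the 9, and the Chrna4 estimates without vehicle B (-0.24) and without vehicle E (-0.51) lie within that interval, on either side of -0.37.

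Single libraries also moved several members at once. AM6545 E held the highest value of its group for 7 of 9 members, while over all genes tested it did so for 28.9%. The exceptions were Chrm5 and Chrnb2, for which it was the lowest (32.7% of all genes). Vehicle E was the lowest of its group for 5 of 9 members (35.5% of all genes) and vehicle B the highest for 4 of 9 (37.5% of all genes). Vehicle B was the highest and vehicle E the lowest of their group for Chrm2, Chrm3, Chrna4 and Chrnb2, and the reverse held for Chrna5 and Chrna7.

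The balance between receptors overlapped between the groups. Chrm1 made up 89.9% ± 0.288 (SD, n = 4) of the summed per-length level of the 5 muscarinic genes with AM6545 and 90.7% ± 1.80 (SD, n = 3) with vehicle. The ratio of Chrna7 to Chrna4 counts was 0.698, 0.647, 0.649 and 0.498 in AM6545 B, D, E and F, and 0.190, 0.334 and 0.642 in vehicle B, D and E. Vehicle E had a ratio like that of the AM6545 libraries, and vehicle B and D were below all of them. Chrna7 accounted for 31.2% ± 3.97 (SD, n = 4) of the per-length sum of the 4 nicotinic members with AM6545 and 21.7% ± 8.40 (SD, n = 3) with vehicle; Chrna4 accounted for 26.2% ± 2.84 and 32.5% ± 4.04. The 4 nicotinic members together were at 31.3 ± 3.46 with AM6545 and 31.0 ± 2.30 with vehicle on the per-length scale.

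Counts per transcript were deposited as well, and 21 of the 25 annotated transcripts of the members had counts. Of the 13 tested, none passed the adjusted threshold (edgeR adjusted p from 0.685 to 0.970) and none had an unadjusted p under 0.05, against 0.0177% and 8.39% of the 33962 transcripts tested. In simulated counts this test recovered 12% of log2 changes of 1 and 40% of log2 changes of 2 over all transcripts. For genes it recovered 89% and 99%. The absence of calls among transcripts therefore does not show that the forms were used alike. One form carried nearly all counts of Chrm2, Chrm3, Chrna4 and Chrna7. Chrm1 was divided between Chrm1-201, with 82.6% ± 1.6 of counts (SD, n = 4) with AM6545 and 80.5% ± 4.0 (SD, n = 3) with vehicle, and Chrm1-202, with 17.2% ± 1.64 and 19.2% ± 4.17.

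Chrna5 was divided between a form with all of its exons, Chrna5-202, and a shorter coding form, Chrna5-204, and the junctions that tell them apart are shown because the finding is which form was counted more. In Chrna5-202 exon 1 (chr9:54981533-54981721) is joined to exon 2 (chr9:54998012-54998163). In Chrna5-204 the same exon end is joined to an exon that starts at position 55004336, within exon 5 of the other form, so that 3 exons and 312 coding bases in all are absent. Capitals mark the first 30 bases of the joined exon (GRCm38, plus strand, GENCODE M21 transcripts).
Chrna5-202: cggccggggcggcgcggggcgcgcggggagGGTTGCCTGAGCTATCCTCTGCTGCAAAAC
Chrna5-204: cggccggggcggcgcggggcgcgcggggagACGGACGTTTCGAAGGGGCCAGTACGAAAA
Chrna5-204 received 58.8%, 69.9%, 77.0% and 58.7% of the gene's counts in AM6545 B, D, E and F, and 62.0%, 61.9% and 53.9% in vehicle B, D and E. AM6545 D and E were above every vehicle library and AM6545 B and F were not. On the log2 scale the difference was 0.047 for Chrna5-204 and -0.46 for Chrna5-202 (edgeR adjusted p = 0.969 and 0.698). The shares above are of counts and were not divided by length. Chrna5-204 is 2446 bases long and Chrna5-202 is 1737, so the shares do not rank the forms by number of molecules. Chrna5-204 also has 954 more bases at its 3′ end, so its estimated share can come from the skipped exons or from the longer end, which cannot be told apart from these counts.

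Chrnb2 was divided between the coding form Chrnb2-201 and Chrnb2-202, annotated as a processed transcript with no coding sequence, and their starts are shown because the forms differ almost nowhere else. They share 6112 bases at the 3′ end; Chrnb2-201 has 287 bases of its own and Chrnb2-202 has 33. Capitals mark the last 30 bases of exon 1 for Chrnb2-201, which precede exon 2 at chr3:89763220-89763365, and the 33 own bases of Chrnb2-202, whose first exon is chr3:89763220-89763401 (GRCm38, minus strand, GENCODE M21 transcripts).
Chrnb2-201: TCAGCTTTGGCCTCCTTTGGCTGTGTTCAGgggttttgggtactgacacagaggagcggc
Chrnb2-202: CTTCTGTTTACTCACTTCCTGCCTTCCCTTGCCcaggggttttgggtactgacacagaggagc
Chrnb2-202 was assigned 33.8%, 28.7%, 43.9% and 23.4% of the gene's counts in AM6545 B, D, E and F, but 85.8%, 0% and 0% in vehicle B, D and E. With 33 bases of its own, the share of Chrnb2-202 rests on how the quantifier divided reads from shared bases, so a 0 is an assignment and sets no limit on the form. How stable that division is was not tested. Vehicle B, D and E thus lay on both sides of the AM6545 libraries, and the log2 fold change of -0.36 for Chrnb2-202 had an SE of 1.75 (edgeR adjusted p = 0.970). The gene's CPM, given above, is the sum over forms and does not depend on this division.

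**Figure D4:**
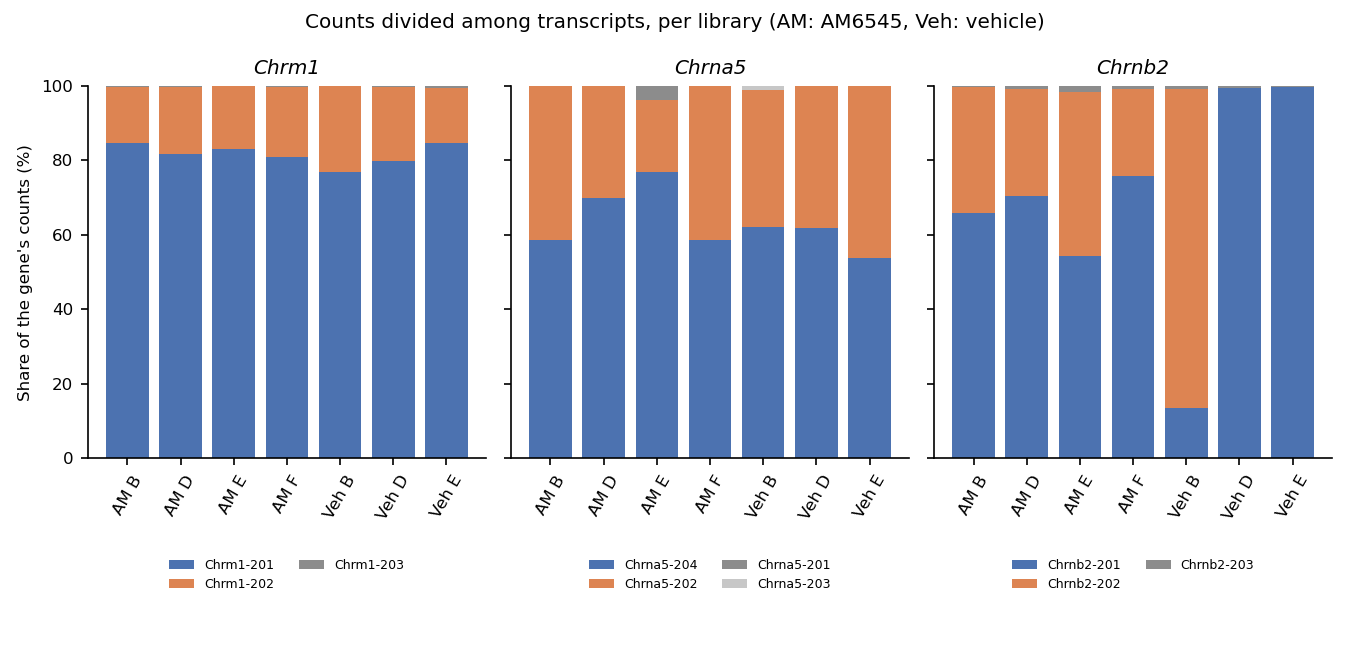
Share of a gene's counts assigned to each transcript, in percent, for Chrm1, Chrna5 and Chrnb2 in each of 7 libraries. Chrm1 is divided much alike in all 7, while Chrnb2-202 takes from 0% (vehicle D and E) to 85.8% (vehicle B).

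The genes around these receptors were described through 6 lists with 64 genes, of which 54 were tested; none passed the adjusted threshold in edgeR (lowest adjusted p = 0.199), 4 were higher and 4 lower at an unadjusted p under 0.05 (5.86% and 8.7% of all genes), and their median log2 fold change was -0.035 beside 0.0079 over all genes. Acetylcholine synthesis genes were nearly absent from the fraction. Chat, which makes acetylcholine, had 18 counts in all 7 libraries together, with 0 in AM6545 B and E (which allows up to 0.130 and 0.141 CPM) and 0.325 CPM at most, in vehicle E. Slc18a3, the vesicular transporter, had 44 counts and Slc5a7, the choline transporter of cholinergic terminals, 73; all 3 were too low to test. Ache, which breaks acetylcholine down, was abundant at 99.8 ± 5.29 CPM (SD, n = 4) with AM6545 and 107 ± 12.6 CPM (SD, n = 3) with vehicle, a log2 fold change of -0.10. Slc44a1 (0.046), Bche (0.20), Prima1 (-0.18) and Colq (-0.41) likewise did not pass, and the list's 5 tested genes were 2 higher and 3 lower.

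Of 12 other nicotinic subunit genes, 5 were tested, 2 higher and 3 lower, with a median log2 fold change of -0.20. Of the subunits of the muscle receptor, Chrnd and Chrng had 0 counts in 7 of 7 libraries, while Chrna1 had 338 counts in all and Chrnb1 had 87. Chrna3 (-0.50), Chrnb4 (-0.63) and Chrnb1 (0.62) had the lowest p-values of this list, all at 1.73 CPM or below in each library. In a list of 9 genes, mostly chaperones and Ly6 proteins that assemble or modulate nicotinic receptors, 4 were higher and 5 lower. Ly6h, which limits nicotinic receptors at the surface, was at 253, 269, 261 and 269 CPM in AM6545 B, D, E and F, and at 472, 306 and 255 CPM in vehicle B, D and E. Vehicle B was far above the rest, vehicle E was within the AM6545 range, and the log2 fold change of -0.39 (edgeR adjusted p = 0.327) became 0.061 after the GC and length correction. Ly6e was at -0.47 and Lynx1, a nicotinic receptor brake, at -0.16.

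In the Gq pathway of M1, M3 and M5, 7 of 14 genes were higher and 7 lower, with a median of -0.020. Itpr1, the receptor that releases calcium after phospholipase C, was at -0.23 and Kcnh2 at -0.28.

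In the Gi/o pathway of M2 and M4, 6 of 14 genes were higher and 8 lower, also with a median of -0.020. At an unadjusted p under 0.05, 4 of the 14 were higher and 1 lower, against 5.86% and 8.7% of all genes; a difference between this list and the others was not tested. Gnai3, a Gi alpha subunit, was at 43.9 ± 2.11 CPM (SD, n = 4) with AM6545 and 33.3 ± 3.86 CPM (SD, n = 3) with vehicle, without overlap (as were 13.8% of all genes), a log2 fold change of 0.40 (edgeR adjusted p = 0.199). Rgs4, which speeds the turn-off of Gi and Gq signals, was at 208 ± 6.72 and 168 ± 12.6 CPM, also without overlap (log2 fold change 0.31; edgeR adjusted p = 0.218). Adcy5, an adenylyl cyclase that Gi inhibits, was at -0.39 (edgeR adjusted p = 0.231). The GC and length correction took Gnai3 to 0.18, Rgs4 to 0.12 and Adcy5 to -0.15. Among 7 receptor kinases and arrestins, 1 was higher and 6 lower; Arrb1, which uncouples activated receptors, was at -0.28 without overlap, as were 13.8% of all genes (edgeR adjusted p = 0.303), while Grk6 was at 0.12 and Grk2 at -0.051.

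Once vehicle E was left out, 6.38% of all genes tested passed the adjusted threshold in edgeR. Of the 54 pathway genes tested with all 7 libraries, 5 passed in that fit. Among them were Ly6h, Gnai3, Rgs4 and Adcy5, and the members Chrna4 and Chrna7 passed as well. Without vehicle B none of them passed.

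**Figure D5:**
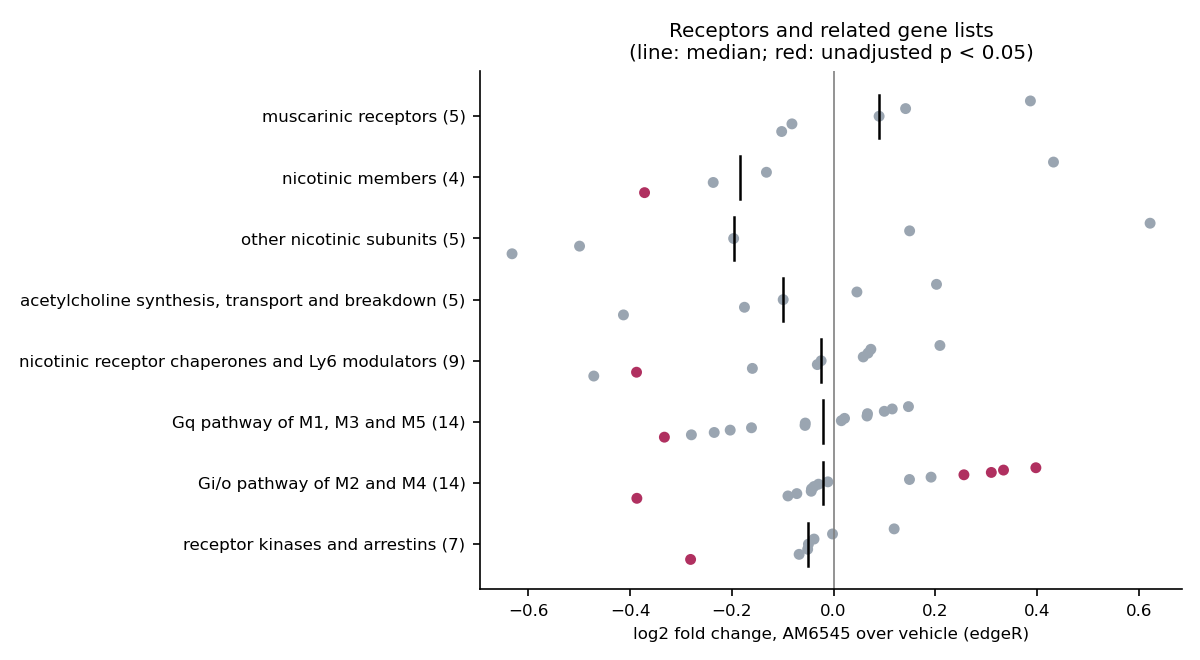
Log2 fold change of AM6545 over vehicle for the tested genes of the muscarinic and nicotinic members and of 6 related lists; points are genes, the short line is the median of each list, and red marks an unadjusted p under 0.05. The list medians lie between -0.20 and 0.090.

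Markers of cells that could bring these receptors with them were measured beside the members. Of 7 cholinergic neuron markers, 6 were under 1 CPM, and their sum ran from 3.01 to 6.26 CPM with AM6545 and from 2.25 to 7.98 CPM with vehicle. Markers of the medial habenula, a region rich in nicotinic subunits, summed to between 18.5 and 23.4 CPM with AM6545 and between 21.6 and 26.9 CPM with vehicle, with 1 of 5 tested genes higher and 4 lower. Excitatory neuron markers (1 higher, 4 lower of 5) did not overlap in their sums, given above; Nrgn had a log2 fold change of -0.37, Slc17a7 of -0.052, Camk2a of -0.086 and Neurod6 of 0.15. GABA interneuron markers, whose cells carry Chrna7, summed to between 712 and 800.5 CPM with AM6545 and between 725 and 815 CPM with vehicle, with 3 higher and 5 lower of 8. Striatal projection neuron markers, whose cells carry Chrm4, summed to between 139.9 and 183 CPM with AM6545 and between 154 and 188 CPM with vehicle, with 2 higher and 5 lower of 7. Microglia markers summed to between 396 and 420 CPM with AM6545 and between 401 and 565 CPM with vehicle. Of these 5 markers, 2 were higher and 3 lower. At an unadjusted edgeR p under 0.05, 3 of the 5 were lower (C1qa, C1qb and Tyrobp), against 8.7% of all genes. Cx3cr1 and P2ry12 went the other way, with log2 fold changes of 0.042 and 0.072. Choroid plexus markers (0 higher, 4 lower of 4) ran from 400.4 CPM in AM6545 F to 1896 CPM in AM6545 E, and from 1519 to 2709 CPM with vehicle. No gene of these lists passed the adjusted threshold in edgeR. The part of these cells in the receptor values was not tested.

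By likeness of log2 CPM over the 7 libraries, Chrm1 was closest to Wfs1 (Pearson r = 0.984), Abcc8 (0.980) and Atp13a2 (0.979) among 14160 named genes. Chrnb2, the nicotinic member with the highest mean CPM, was closest to Ly6h (r = 0.993), Adcy9 (0.991) and Tmem41a (0.991). An r above 0.9 with Chrm1 was reached by 27 genes, and with Chrnb2 by 668. These values describe 7 libraries that share depth and base composition effects, and vehicle B has the highest Chrnb2 level among them.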

How the data were processed

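Per the submitters' processing notes, the authors quantified reads with Salmon 1.5.2 and mm10; annotation release, strand and filters were not given in the sources used here. The deposited tables hold estimated counts per gene and per transcript (83.5% of gene values above 0 are not whole). These were rounded, filtered with edgeR's filterByExpr, scaled by TMM and tested with edgeR 4.0.16 (R 4.3.3) by quasi-likelihood with robust estimation and Benjamini-Hochberg adjustment over 14654 genes or 33962 transcripts, without covariates. CPM are TMM-scaled; intervals for fold changes are from the model. Identifiers were matched to GENCODE M21 (22148 of 22248 genes), which gave names, lengths, GC content and sequences. The members and lists were chosen with earlier results of these data known. Named were all members, up to 3 genes per related list with the smallest p, each synthesis and transport gene, the 2 most counted transcripts of each member, and the 3 genes most like Chrm1 and Chrnb2. A gene that this rule names is not reported here. Alternatives were DESeq2 1.42.0, limma 3.58.1 (voom with quality weights), other scalings and filters, a GC and length correction (lowess offsets), summed transcripts, a replicate block, and leaving out each library. Scripts were tested on simulated data. Depth was 19174649 to 25894733 counts per library, and precision also rested on the spread between libraries. The SE of the log2 fold change was 0.248 for Chrna7, with 1505 counts in all, and 0.209 for Chrm4, with 423. Intervals and limits from counts cover counting error only.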

Additional observations from a re-analysis of the deposited data

Results flagged for a closer look

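Within the AM6545 group, 60 values with 4 libraries each were compared for a library far from the other 3 (Dixon's gap ratio at the 95% level). Chance alone gives about 1 in 20, or 3, and 6 were found, among values that partly share counts and so are not independent. AM6545 E was the far library for 4 of them: Chrm3 at 15.6 CPM, Slc5a7 at 0.988 CPM and the muscarinic per-length sum at 141 were high, and the share of Chrnb2 in the nicotinic per-length sum was low at 20.1%. AM6545 B was high for Chrna4-202, with 5.22% of the gene's counts where the others had 0. With the other 3 at 0, the gap ratio is at its maximum for any value in AM6545 B. Vehicle D had 6.31% of the gene's counts in this form. AM6545 F was high for Grk6 at 70.3 CPM.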

How the results depend on the processing

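No receptor gene passed the adjusted threshold under any alternative but one: without vehicle E, 2 did. Leaving out 1 library at a time gave 0 to 2 members, 0 to 5 genes of the related lists and 0 to 944 of all genes; the high ends were all without vehicle E. Of all genes, 1 passed as reported, 205 with DESeq2, 118 with limma-voom, 2 with a mean of at least 50 counts, 2 without robust estimation and 0 with the GC and length correction. Chrm1, Chrna4, Chrna5, Chrna7 and Chrnb2 kept the sign of their log2 fold change in 19 of 19 alternatives and Chrm5 in 18 of 18. Chrm2 turned to -0.020 with limma-voom and to -0.0055 with the GC and length correction and replicate block together. Chrm4 turned to -0.050 with limma-voom and to -0.066 without vehicle E (range without 1 library -0.066 to 0.23), and Chrm3 to 0.034 without vehicle B (range -0.20 to 0.034); the cause was not tested. Library letters are shared by the groups, but same-letter libraries did not deviate together (r = -0.255, -0.130 and -0.180 for B, D and E). Other pairs had r from -0.168 to 0.224. So few pairs, from libraries with base composition effects, cannot decide whether same-letter libraries were handled together, and the labels leave this open. With the letter as a replicate block, 1 gene passed (1199 genes at an unadjusted p under 0.05, against 2134) and 0 members. At an unadjusted p under 0.05 the member called was then Chrna7 in place of Chrna4 (edgeR adjusted p = 0.595 and 0.659). No transcript of a member passed under any alternative run. Depth limits Chrm5 most, which had 11 to 31 counts per library.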
